A study of Mus musculus with 8 samples.

Results

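The 42 genes described here are the sterol and fatty acid synthesis genes under SREBP control, with their regulators and the enzymes that place the new fatty acids into triglyceride. Membership was by gene symbol, with no threshold on a measured value. All 42 were found once each among the 53816 gene IDs, and all 42 passed the filter of a mean of at least 1 TPM, a length-scaled share of all transcripts, over the 8 libraries that left 13055 genes to test. They comprise 19 sterol genes, 17 fatty acid and glycerolipid genes, and 6 regulators. RNA was sequenced from whole liver of 8 mice, all of them after bile duct ligation, an operation that blocks bile flow and gives cholestatic injury. The 4 mice of the first group are labelled as overexpressing Myc in endothelial cells, with a genotype field that names liver sinusoidal endothelial cells (LSEC), and the 4 mice of the second group are wild type. The transgene's promoter, the strain, sex and age of the mice and the time after ligation were not stated in the labels. Because whole liver was sequenced, fewer cells of a type and less RNA per cell cannot be told apart.

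SREBP transcription factors are made as membrane proteins of the endoplasmic reticulum, where SCAP holds them and INSIG proteins retain the complex when sterols are plentiful. When sterols are short, SCAP carries SREBP to the Golgi, where proteases release the active factor. SREBP-2, the product of Srebf2, mainly drives cholesterol synthesis, and SREBP-1c, a product of Srebf1, mainly drives fatty acid synthesis in response to insulin, beside the carbohydrate-responsive factor ChREBP, the product of Mlxipl. In liver the hepatocyte is the main site of both pathways, and cholesterol is also the precursor of bile acids.

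SREBP binds sterol regulatory elements close to the transcription start, usually beside sites for the factors NF-Y and Sp1, so the windows just upstream of members are shown first. RefSeq (GRCm38.p6, the same assembly as mm10) gave 44 promoter windows for 33 of the 42 members, and the 250 bases before each start were searched on both strands. Capitals mark the core of the sterol regulatory element, TCACNCCAC, and the NF-Y box CCAAT or its reverse complement ATTGG. Hmgcs1 is shown because its window alone held both, Mvk for the smallest p-value, Idi1 and Msmo1 as strongly varying and abundant sterol genes, and Fasn as the fatty acid synthase.
Hmgcs1, chr13:119690101-119690350, plus strand: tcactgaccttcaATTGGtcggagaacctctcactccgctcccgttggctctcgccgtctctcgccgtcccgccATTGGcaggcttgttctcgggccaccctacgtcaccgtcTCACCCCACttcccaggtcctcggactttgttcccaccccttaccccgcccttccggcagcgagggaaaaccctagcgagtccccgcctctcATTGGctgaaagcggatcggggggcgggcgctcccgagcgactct
Mvk, chr5:114444019-114444268, plus strand: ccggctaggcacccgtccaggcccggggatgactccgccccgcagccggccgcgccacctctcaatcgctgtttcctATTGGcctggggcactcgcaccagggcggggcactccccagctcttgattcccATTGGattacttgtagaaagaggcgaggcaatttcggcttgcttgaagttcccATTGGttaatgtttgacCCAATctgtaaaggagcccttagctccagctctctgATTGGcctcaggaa
Idi1, chr13:8885356-8885605, plus strand: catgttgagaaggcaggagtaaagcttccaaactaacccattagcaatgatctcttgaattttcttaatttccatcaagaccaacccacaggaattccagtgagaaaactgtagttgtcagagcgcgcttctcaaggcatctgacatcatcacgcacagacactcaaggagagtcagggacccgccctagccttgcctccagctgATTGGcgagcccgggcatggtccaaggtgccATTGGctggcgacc
Msmo1, chr8:64733579-64733828, minus strand: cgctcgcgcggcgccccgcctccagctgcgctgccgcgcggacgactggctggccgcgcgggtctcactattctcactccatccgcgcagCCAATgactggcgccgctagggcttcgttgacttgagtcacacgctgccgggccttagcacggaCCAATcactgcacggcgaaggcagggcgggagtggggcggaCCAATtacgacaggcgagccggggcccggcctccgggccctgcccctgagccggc
Fasn, chr11:120824548-120824797, minus strand: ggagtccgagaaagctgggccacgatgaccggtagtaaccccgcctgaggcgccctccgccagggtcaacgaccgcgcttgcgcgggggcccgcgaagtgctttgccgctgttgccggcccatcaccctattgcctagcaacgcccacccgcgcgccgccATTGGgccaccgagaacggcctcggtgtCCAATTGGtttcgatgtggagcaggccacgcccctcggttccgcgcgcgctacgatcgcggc

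The element TCACNCCAC occurred in 2 of the 44 member windows, as TCACCCCAC 137 bases before the start of Hmgcs1 and as TCACACCAC 136 bases before a start of Mlxipl, against 1.05% of all 32851 windows. CCAAT on either strand occurred in 14 of the 18 windows of sterol genes (77.8%) and in 8 of the 14 windows of fatty acid genes (57.1%), against 33.8% of all windows and 35.4% of the windows of protein-coding genes. The Sp1 box GGGCGG occurred in 15 of the 18 sterol windows (83.3%) and 6 of the 14 fatty acid windows (42.9%), against 32.7% of all windows and 42.6% of those of protein-coding genes, a share close to that of the fatty acid windows. The E-box CACGTG, the core of ChREBP sites, occurred in 7 of the 44 member windows (15.9%), among them those of Insig1, Elovl5 and Hsd17b7. By arm it occurred in 3 of the 18 sterol windows (16.7%), 1 of the 14 fatty acid windows (7.14%) and 3 of the 12 regulator windows (25%). It occurred in 6.02% of all windows and 6.63% of those of protein-coding genes, shares close to that of the fatty acid windows. In Fasn the CCAAT and ATTGG matches that lie 62 and 59 bases before the start overlap each other. These matches describe the letters of the windows and not binding.

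Myc itself (ENSMUSG00000022346.15, chromosome 15, 61985391 to 61990374, mm10) did not follow the labels. It stood at 339, 356, 25.6 and 249 TPM in Myc-labelled replicates 1 to 4, against 272, 207, 554 and 89.2 TPM in control replicates 1 to 4 (log2 difference -0.45 ± 0.95 SE, exact permutation p = 0.714, two-sided). Whether transcripts of a transgene would count towards this gene was not stated, and the groups are called Myc-labelled and control throughout. Aligned bases per library, derived from the ratio of coverage to FPKM, ranged from 5.29 to 6.74 Gb. The summed level of 12 hepatocyte markers was 29884 to 46332 TPM in the Myc-labelled libraries and 35749 to 41597 TPM in the controls, and all 12 were detected in every library. The highest sum, in Myc-labelled replicate 3, held 16395.5 TPM of Ahsg and 11113 TPM of Fgb. Fgb, Tat and Ambp had their highest value in that library, and Cps1, Apoa2 and Cyp2f2 their lowest, so the sum does not speak for every marker. Myc-labelled replicate 3 held the lowest of the 8 values for 35.7% of all tested genes and Myc-labelled replicate 1 the highest for 35.8%, so these libraries stood apart beyond the pathway.

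None of the 42 members differed between the groups at an adjusted p of 0.05 (limma on log2(TPM + 1), Benjamini-Hochberg over all 13055 genes; smallest adjusted p of a member 0.9998). The background was 0% higher and 0% lower, since no gene of the 13055 passed. Before adjustment, p was under 0.05 for 0 higher members and 1 lower member, Mvk, beside 1.26% of all genes higher and 0.597% lower. No member had all 4 Myc-labelled values above or below all 4 control values, beside 0.935% of all genes with separated higher values and 0.322% with separated lower values. The groups therefore overlapped in every member. The limma interval of the difference, before adjustment, reached a median of 0.61 log2 units to either side, against 0.47 over all genes tested. For a typical member, a difference smaller than about 0.61 would therefore not have reached even an unadjusted p of 0.05. A call at an adjusted p of 0.05 over 13055 genes would need a larger difference still, and the size needed was not computed.

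The signs of the differences were uneven across the pathway. Of the 19 sterol genes 17 were on the lower side, with a median log2 difference of -0.23. Of the 17 fatty acid genes 9 were on the higher side and 8 on the lower, with a median of 0.02. Over all tested genes 58% were on the higher side and 42% on the lower, with a median of 0.04. The sterol median was -0.04 without Myc-labelled replicate 3, -0.11 without control replicate 4, and -0.37 without either Myc-labelled replicate 1 or control replicate 1. Without Myc-labelled replicate 3, 7 of the 19 sterol genes were on the higher side. With any other library left out, 1 to 3 were. Sterol genes also varied together over the libraries (median pairwise Pearson r = 0.71), so their signs are not independent of each other. When each of the 8 libraries was left out in turn, the fatty acid median reached its extremes of -0.13 (Myc-labelled replicate 4 left out) and 0.30 (Myc-labelled replicate 3 left out). Lower signs also prevailed in 3 of the 8 marker lists. Higher signs prevailed in the other lists, with 8 of 8 neutrophil, 7 of 7 cholangiocyte and 5 of 5 erythroid markers tested. The higher counts were 8 of 9 for stellate cell and 3 of 4 for adipocyte markers tested. A negative log2 difference was found in 11 of 12 hepatocyte markers (median -0.14), 8 of 8 Kupffer cell markers (median -0.43) and 9 of 10 endothelial markers (median -0.26). The endothelial sum was 90.1 to 174 TPM in the Myc-labelled libraries and 133 to 197 TPM in the controls. The part of these cells in the sterol values was not tested.

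**Figure D1:**
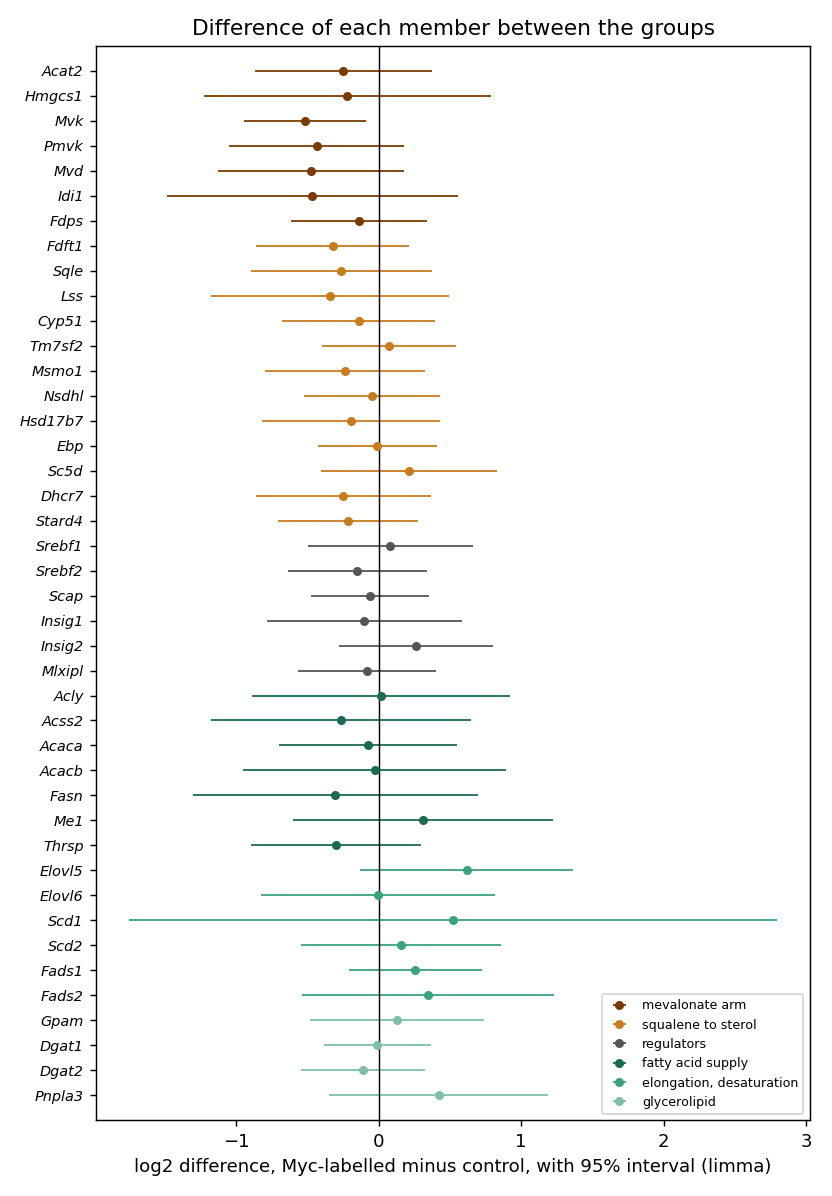
Log2 difference of each of the 42 members on the log2(TPM + 1) scale, Myc-labelled minus control, with the limma 95% interval as a bar, coloured by role and with 4 libraries per group. The intervals of 41 members include 0, and that of Mvk runs from -0.94 to -0.09 before adjustment for the genes tested.

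The mevalonate arm turns acetyl-CoA into the isoprenoid units from which sterols are built, and its 7 genes all had negative log2 differences, from -0.52 to -0.14, with a median of -0.43. Mvk, which encodes mevalonate kinase (chromosome 5, 114444269 to 114460591), stood at 58.5, 52.6, 35.4 and 48.6 TPM in the Myc-labelled libraries, against 55.9, 77, 68.7 and 76.6 TPM in the controls. In Mvk 3 of the 4 Myc-labelled values lay below every control value, and replicate 1 lay above the lowest control. Its log2 difference was -0.52 ± 0.19 SE (limma unadjusted p = 0.0222, adjusted p = 0.9998). The unadjusted p was 0.0595 without control replicate 2 and 0.0612 without control replicate 4.

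Idi1, the isopentenyl diphosphate isomerase gene (chromosome 13, 8885501 to 8892451), varied most of this arm. It stood at 222, 152, 60.3 and 226 TPM in the Myc-labelled libraries, against 108, 236, 205 and 323 TPM in the controls. The span from 60.3 to 323 TPM is 5.35-fold, and its ends lay in different groups (log2 difference -0.46 ± 0.46 SE). Hmgcs1, the HMG-CoA synthase gene with the sterol element shown above, followed the same order of low libraries. It stood at 475, 265, 154 and 536 TPM in the Myc-labelled libraries, against 184, 436, 410 and 584 TPM in the controls, with Myc-labelled replicate 3 and control replicate 1 lowest in their groups.

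Fdps, which makes farnesyl diphosphate, was the most abundant gene of the arm. It stood at 469, 384, 360 and 624 TPM in the Myc-labelled libraries, against 483, 575, 400 and 530 TPM in the controls, a 1.73-fold span over the 8 libraries. Acat2, the cytosolic acetoacetyl-CoA thiolase, averaged 87.1 ± 30.8 TPM in the Myc-labelled libraries and 99.8 ± 21.1 TPM in the controls (SD, n = 4 each). Its neighbouring paralogue Acat3 averaged 196 ± 61.9 TPM in the Myc-labelled libraries and 236 ± 15.7 TPM in the controls, and how reads were split between the pair was not stated. Pmvk, the phosphomevalonate kinase gene, averaged 71.4 ± 26.7 TPM in the Myc-labelled libraries and 91.9 ± 14.8 TPM in the controls. Mvd, the mevalonate diphosphate decarboxylase gene, averaged 34.1 ± 5.73 TPM in the Myc-labelled libraries and 51.1 ± 22.8 TPM in the controls, where replicates 2 and 4 were high at 69.6 and 72 TPM.

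**Figure D2:**
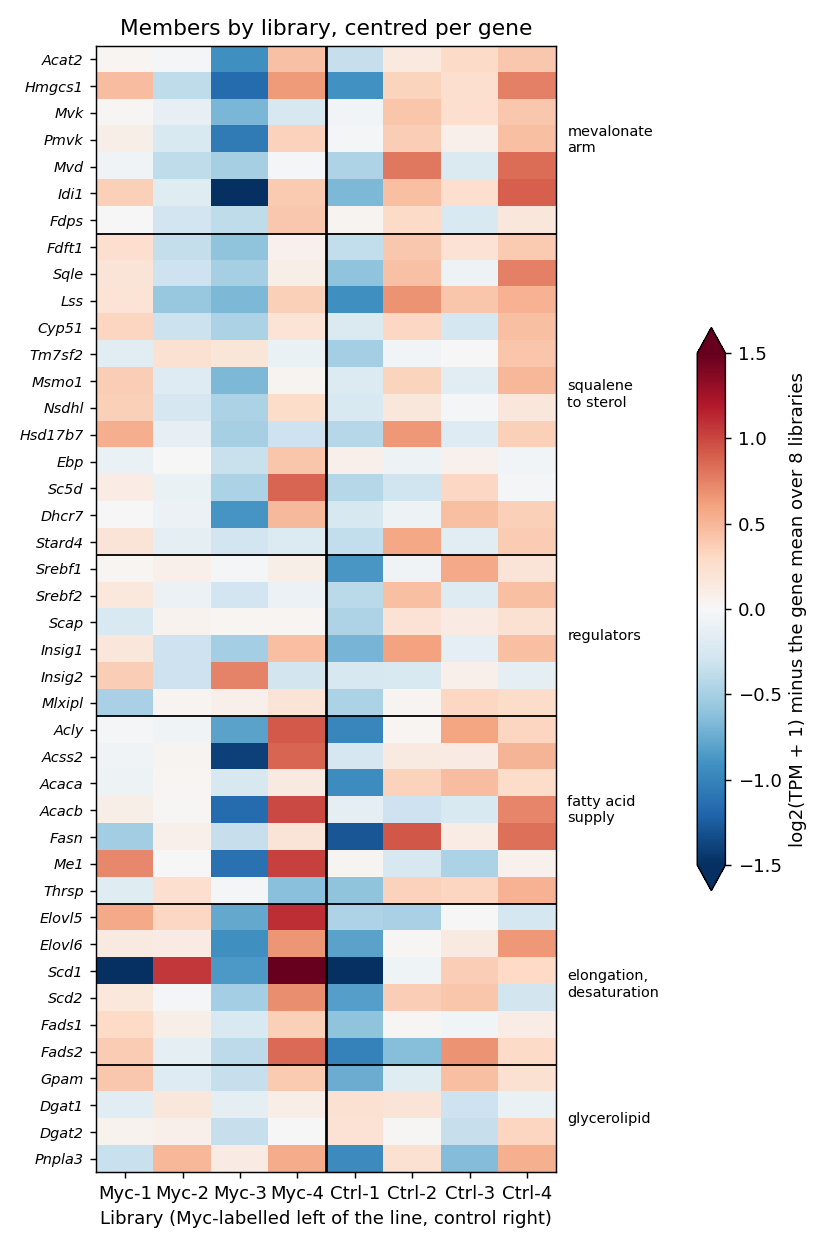
Level of each member in each library as log2(TPM + 1) minus the gene's mean over the 8 libraries, with colours saturating at 1.5 log2 units to either side and genes grouped by role. Myc-labelled replicate 3 and control replicate 1 are blue over most sterol and fatty acid rows, Insig2 is red in Myc-labelled replicate 3, and Scd1 runs from the deepest blue to the deepest red.

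The squalene and sterol steps comprised 12 genes, 10 of them with a negative log2 difference and a median of -0.20. Msmo1, the sterol C4-methyl oxidase, was the most abundant. It stood at 340, 230, 164 and 272 TPM in the Myc-labelled libraries, against 229, 332, 235 and 374 TPM in the controls, and the ranges overlapped over most of their length. Fdft1, the squalene synthase gene (chromosome 14, 63145150 to 63179578), had the smallest p-value of these steps. It stood at 157, 103, 86 and 137 TPM in the Myc-labelled libraries, against 101, 174, 153 and 173 TPM in the controls (log2 difference -0.32 ± 0.24 SE, limma unadjusted p = 0.214). Fdft1 overlaps Ctsb on the opposite strand, a gene with a mean of 273 TPM, and since the strand of the libraries was not given, reads of the overlap cannot be told apart.

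Lss, which closes squalene epoxide into lanosterol, varied most. It stood at 47.1, 27.3, 25.2 and 52.9 TPM in the Myc-labelled libraries, against 21.1, 65.6, 54.7 and 59.4 TPM in the controls. Control replicate 1 was the lowest of all 8 values, well under the other controls. Sqle, the squalene epoxidase gene, averaged 118 ± 26.3 TPM in the Myc-labelled libraries and 147 ± 57.5 TPM in the controls (SD, n = 4 each). Cyp51, the lanosterol demethylase, averaged 132 ± 35.2 TPM in the Myc-labelled libraries and 145 ± 36.4 TPM in the controls, and it overlaps Akap9 on the opposite strand.

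Nsdhl, a sterol dehydrogenase, averaged 99.3 ± 27.2 TPM in the Myc-labelled libraries and 100.3 ± 12.9 TPM in the controls. Ebp, the sterol isomerase gene, averaged 151 ± 34.7 TPM in the Myc-labelled libraries and 149.8 ± 8.01 TPM in the controls, with the highest value, 200 TPM, in Myc-labelled replicate 4. Sc5d, a sterol desaturase, averaged 107 ± 45.6 TPM in the Myc-labelled libraries and 88.1 ± 20.8 TPM in the controls, again with its highest value, 172 TPM, in Myc-labelled replicate 4. Tm7sf2, the sterol C14-reductase gene, averaged 116 ± 15.6 TPM in the Myc-labelled libraries and 112 ± 29.2 TPM in the controls. Sc5d and Tm7sf2 were the sterol genes with a positive log2 difference, of 0.21 ± 0.28 and 0.07 ± 0.21 (SE).

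Dhcr7, which carries out the last reduction to cholesterol, averaged 78 ± 28.5 TPM in the Myc-labelled libraries and 89.5 ± 20.5 TPM in the controls. Hsd17b7, a sterol ketoreductase, averaged 41.7 ± 14.8 TPM in the Myc-labelled libraries and 48 ± 16.6 TPM in the controls. Stard4, which moves cholesterol between membranes, averaged 29.1 ± 4.66 TPM in the Myc-labelled libraries and 34.8 ± 10.8 TPM in the controls. The sterol genes together summed to 2506 ± 706 TPM in the Myc-labelled libraries and 2839 ± 625 TPM in the controls, so the means differed by less than either SD.

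The regulators were among the steadier members. Srebf1 stood at 56.1, 57.8, 53.5 and 58.1 TPM in the Myc-labelled libraries, against 29.5, 52.7, 81.5 and 62.7 TPM in the controls. The Myc-labelled values lay close together, inside the wide control range. Srebf1 also yields isoforms from separate starts, which a value per gene does not separate, and it overlaps Rai1 on the opposite strand. Srebf2 stood at 53.4, 44.7, 38.9 and 44.8 TPM in the Myc-labelled libraries, against 35.7, 65.2, 41.6 and 65.2 TPM in the controls. Control replicates 2 and 4 exceeded every Myc-labelled value of Srebf2, and control replicate 1 was the lowest of the 8.

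Scap, the sterol sensor and escort, stood at 39.3, 48, 47.4 and 47.4 TPM in the Myc-labelled libraries, against 33.4, 54.2, 50.5 and 54.6 TPM in the controls. In each group replicate 1 was far below the other 3 values. Mlxipl stood at 30.3, 44.3, 45.2 and 49.7 TPM in the Myc-labelled libraries, against 30.5, 44.2, 53.6 and 52.2 TPM in the controls, again with replicate 1 lowest in both groups. Insig1, a retention protein whose gene is itself an SREBP target, stood at 199, 142, 123 and 241 TPM in the Myc-labelled libraries, against 108, 268, 159 and 241 TPM in the controls. Its order over the libraries was close to that of Hmgcs1 (Pearson r = 0.90 over the 8 libraries).

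Insig2, the second retention protein, was the most abundant regulator and ran against the other members. It stood at 288, 180, 374 and 186 TPM in the Myc-labelled libraries, against 190, 190.1, 237 and 204 TPM in the controls. The highest value lay in Myc-labelled replicate 3, the library in which 15 of the 19 sterol genes and 35.7% of all tested genes had their lowest value. Its log2 difference was 0.26 ± 0.25 SE (limma unadjusted p = 0.312). Of the 10 most negative correlations among all member pairs 8 involved Insig2, down to -0.76 with Acss2. Insig2 correlated at -0.46 with the sterol score and -0.48 with the fatty acid score defined below. These are descriptions over 8 points that share their libraries.

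Fatty acid supply covered 7 genes, 5 of them with a negative log2 difference and a median of -0.07. Acss2, the cytosolic acetyl-CoA synthetase and the most abundant of them, stood at 103, 109, 39.6 and 196 TPM in the Myc-labelled libraries, against 89.2, 117, 116 and 151 TPM in the controls. Both the lowest and the highest value lay in the Myc-labelled group, in replicates 3 and 4. Acss2 overlaps Gss on the opposite strand, a gene with a mean of 91.9 TPM. Thrsp, a lipogenic nuclear protein, had the smallest p-value of the 7, at 82.6, 112, 92 and 60.4 TPM in the Myc-labelled libraries, against 61.8, 120, 118 and 135 TPM in the controls (log2 difference -0.30 ± 0.27 SE, limma unadjusted p = 0.296). Its lowest values lay in a library of each group.

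Fasn, the fatty acid synthase gene (chromosome 11, 120805846 to 120824547), had the highest SD of log2(TPM + 1) of the 7, 0.72. It stood at 44.2, 67.2, 50.1 and 73.3 TPM in the Myc-labelled libraries, against 25.8, 123, 69.4 and 115 TPM in the controls. The control values spanned more than the Myc-labelled values and enclosed them all (log2 difference -0.30 ± 0.44 SE). Acaca, the acetyl-CoA carboxylase of the cytosol, had the same shape, with a mean of 16.7 ± 1.96 TPM in the Myc-labelled libraries and 18.8 ± 7.05 TPM in the controls and a low value of 8.44 TPM in control replicate 1. Fasn and Acaca correlated at 0.87 over the 8 libraries, and Fasn and Scap at 0.94.

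Acly, which supplies acetyl-CoA from citrate, averaged 75.5 ± 38.8 TPM in the Myc-labelled libraries and 73.4 ± 29.5 TPM in the controls. Me1, the malic enzyme that supplies NADPH, averaged 46.2 ± 25.6 TPM in the Myc-labelled libraries and 32.4 ± 5.68 TPM in the controls. Acacb, the carboxylase at the mitochondrial surface, was low at 5.2 ± 3.5 TPM in the Myc-labelled libraries and 4.82 ± 2.24 TPM in the controls. For Acly, Acacb and Me1 the highest of the 8 values lay in Myc-labelled replicate 4, at 130.3, 9.92 and 73.9 TPM.

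**Figure D3:**
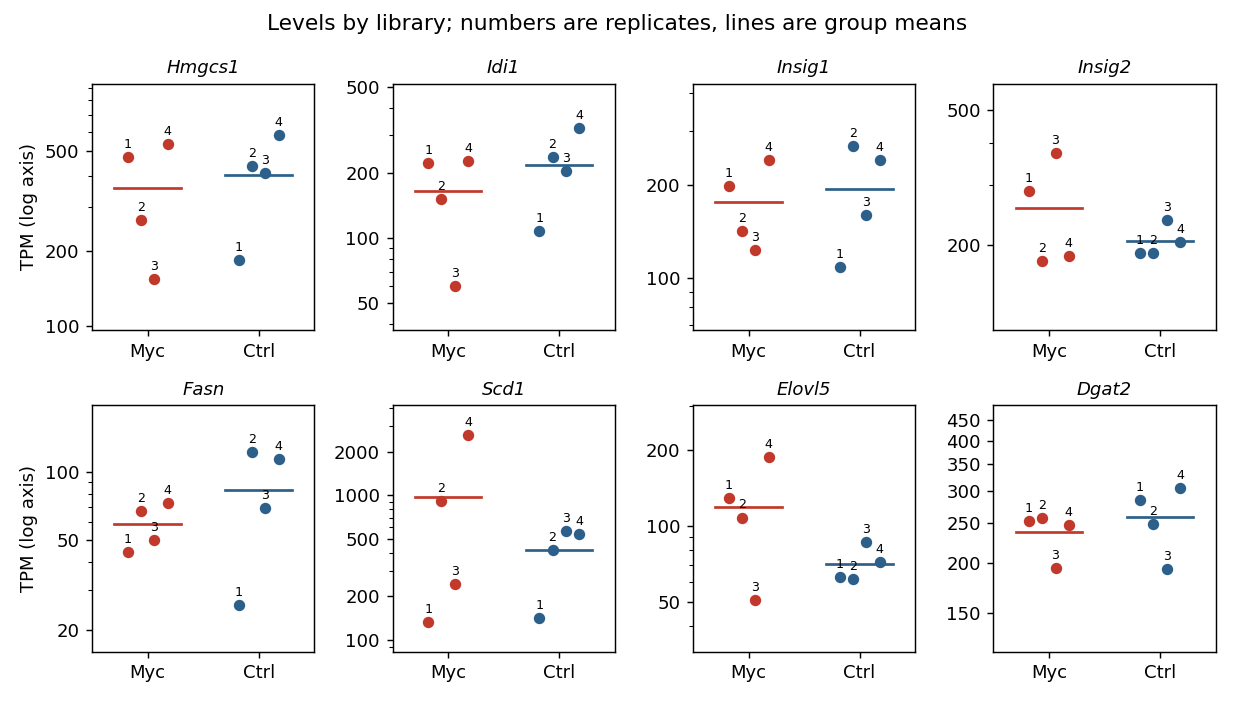
TPM on a log axis for 8 members that the text describes by library, Myc-labelled on the left of each panel and control on the right, with replicate numbers at the points and lines at the group means. Scd1 in Myc-labelled replicate 4 stands at 2609 TPM, and 3 of the 4 Myc-labelled values of Elovl5 lie above all 4 controls.

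Among the elongation and desaturation genes, Scd1 had a far larger span than the other 5, which ranged from 1.95-fold to 3.73-fold. Scd1, the stearoyl-CoA desaturase that makes oleate (chromosome 19, 44394455 to 44407879), was the most abundant fatty acid gene. It stood at 133, 915, 242 and 2609 TPM in the Myc-labelled libraries, against 141, 419, 567 and 539 TPM in the controls. The span over the 8 libraries was 19.6-fold, and the lowest and highest values were both in Myc-labelled libraries, replicates 1 and 4. The log2 difference was 0.52 ± 0.97 SE with a 95% interval of -1.75 to 2.80, and it was -0.25 without Myc-labelled replicate 4. The paralogues Scd3 and Scd4 were at or under 0.15 TPM in every library.

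In Myc-labelled replicate 4, where Scd1 was highest, the summed level of 8 adipocyte markers was 29.2 TPM, within the control range of 24.6 to 41.9 TPM. All of it came from Fabp4 (14.2 TPM), Pparg (11.7 TPM) and Cidec (3.25 TPM), with the other markers at 0 in that library. Myc-labelled replicates 1 to 3 had adipocyte sums of 73, 94.3 and 35.9 TPM. The leptin gene was listed at 0 in all 8 libraries. Plin1, Cfd and Retn were above 0 only in Myc-labelled replicate 2, at 0.468, 43.2 and 1.16 TPM. Adipoq stood at 3.31 TPM in that library, at 0.314 TPM in control replicate 4 and at 0 elsewhere. Of the 8 adipocyte markers 6 had the higher mean in the Myc-labelled group, for Adipoq, Plin1, Cfd and Retn through replicate 2 alone. Cidec, also among them, stood at 33.5 TPM in Myc-labelled replicate 1. It was 3.25 to 7.80 TPM in the other Myc-labelled libraries and 2.11 to 5.31 TPM in the controls. Cholangiocyte markers summed to 974 TPM in Myc-labelled replicate 4, the highest library, against 119 to 443 TPM in the other Myc-labelled libraries and 99.6 to 325 TPM in the controls. Spp1 alone supplied 939 TPM of that sum, and the other 7 markers summed to 34.5 TPM in Myc-labelled replicate 4, below 41.7 and 37.9 TPM in Myc-labelled replicates 1 and 2. All 8 cholangiocyte markers were above 0 in every library, 7 with the higher mean in the Myc-labelled group. Neutrophil markers were also highest in Myc-labelled replicate 4, with a sum of 162 TPM, against 27.9 to 77.2 TPM in the other Myc-labelled libraries and 15.3 to 71.4 TPM in the controls. All 8 neutrophil markers had the higher mean in the Myc-labelled group and none was at 0 in any library. The part of these cells in the fatty acid values was not tested.

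Elovl5, an elongase of polyunsaturated chains (chromosome 9, 77917364 to 77984519), had the largest positive difference of the 42 members. It stood at 129, 108, 50.6 and 189 TPM in the Myc-labelled libraries, against 62.4, 61.3, 86.1 and 71.9 TPM in the controls. Myc-labelled replicates 1, 2 and 4 exceeded every control, while replicate 3 lay below every control. The log2 difference was 0.62 ± 0.34 SE (limma unadjusted p = 0.0964, adjusted p = 0.9998). Without Myc-labelled replicate 3 it was 0.97 (limma unadjusted p = 0.001002, adjusted p = 0.896), and it did not pass there either.

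The desaturases of polyunsaturated chains, Fads1 and Fads2, lie side by side on chromosome 19, 81141 bases apart. Fads1 averaged 156 ± 27.4 TPM in the Myc-labelled libraries and 131 ± 26.4 TPM in the controls, and Fads2 averaged 128 ± 50.7 TPM in the Myc-labelled libraries and 106 ± 55.4 TPM in the controls. The pair correlated at 0.78 over the 8 libraries. Scd1 and Scd2 lie on the same chromosome 87590 bases apart, with 1 coding gene between them, and correlated at 0.65. Scd2 averaged 10.5 ± 3.99 TPM in the Myc-labelled libraries and 9.49 ± 3.87 TPM in the controls, far below Scd1 on this length-scaled unit. Elovl6, the elongase of palmitate, averaged 11.4 ± 4.97 TPM in the Myc-labelled libraries and 11.3 ± 4.72 TPM in the controls. Of the 6 elongation and desaturation genes 5 had a positive log2 difference, with a median of 0.30.

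Glycerolipid genes had the lowest median SD of log2(TPM + 1) on the fatty acid side, 0.34, with Pnpla3 above the rest at 0.58. Dgat2, which adds the last acyl chain to triglyceride, stood at 254, 258, 194 and 247 TPM in the Myc-labelled libraries, against 286, 249, 193 and 306 TPM in the controls. Each group had a low library, and 2 controls lay above every Myc-labelled value. Dgat1, the other acyltransferase of that step, averaged 24.3 ± 2.97 TPM in the Myc-labelled libraries and 24.6 ± 4.35 TPM in the controls and had the smallest span of the 42 members, 1.47-fold. Gpam, the mitochondrial glycerol-phosphate acyltransferase, averaged 41.4 ± 11.3 TPM in the Myc-labelled libraries and 38.5 ± 13.4 TPM in the controls. Pnpla3, a lipid droplet protein gene, was the lowest member, at 0.757, 2.12, 1.41 and 2.26 TPM in the Myc-labelled libraries, against 0.143, 1.58, 0.41 and 2.2 TPM in the controls. At such levels its 15.8-fold span rests on values under 1 TPM.

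Across the 8 libraries the sterol and fatty acid genes varied more, by their medians, than all tested genes. The SD of log2(TPM + 1) over the libraries exceeded 0.5 in 15 of the 42 members, 4 sterol genes and 11 fatty acid genes, beside 15.1% of all tested genes. Its median was 0.44 in the sterol genes, 0.58 in the fatty acid genes and 0.35 in the regulators, against 0.29 over all tested genes. The median ratio of the highest to the lowest library was 2.27 in the sterol genes, 3.69 in the fatty acid genes, 1.95 in the regulators and 2.03 over all tested genes. Some members had an SD under the median of all tested genes, among them Dgat1 (0.20), Ebp (0.21) and Scap (0.23).

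To compare the arms, each gene's log2(TPM + 1) was centred on its mean over the 8 libraries and averaged over the 19 sterol genes and the 17 fatty acid genes. The sterol score was 0.17, -0.20, -0.63 and 0.22 in Myc-labelled replicates 1 to 4, against -0.36, 0.31, 0.07 and 0.43 in control replicates 1 to 4. The fatty acid score was -0.016, 0.14, -0.56 and 0.64 in the Myc-labelled libraries, against -0.63, 0.04, 0.10 and 0.30 in the controls. Myc-labelled replicate 3 and control replicate 1 were lowest for both arms, and the groups overlapped in both. The sterol score minus the fatty acid score was 0.18, -0.34, -0.07 and -0.42 in the Myc-labelled libraries, against 0.27, 0.27, -0.03 and 0.13 in the controls. Myc-labelled replicates 2 and 4 were thus the libraries in which the fatty acid arm stood furthest above the sterol arm.

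The arm scores correlated over the 8 libraries with Pearson r = 0.78 and Spearman rho = 0.64, and with r = 0.88 and rho = 0.83 after the group means were subtracted. Without control replicate 1 and Myc-labelled replicate 3, the libraries farthest from the median sterol score, r was 0.23 and rho 0.20 over 6 libraries. These were chosen by the sterol score itself, which narrows its range, so the relation over all 8 libraries rested in large part on that range. With any 1 library left out, r was 0.67 to 0.84. Both held the lowest value of many other genes too, control replicate 1 for 20.9% and Myc-labelled replicate 3 for 35.7% of all tested genes. Myc-labelled replicate 3 held it for 15 of the 19 sterol genes (78.9%) and 5 of the 17 fatty acid genes (29.4%). Control replicate 1 held it for 4 sterol genes (21.1%) and 8 fatty acid genes (47.1%). The fatty acid share of Myc-labelled replicate 3 was thus below that of all tested genes, and the sterol share of control replicate 1 was close to it. Myc-labelled replicate 4 held the highest value for 11 of the 17 fatty acid genes, beside 14.4% of all tested genes.

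**Figure D4:**
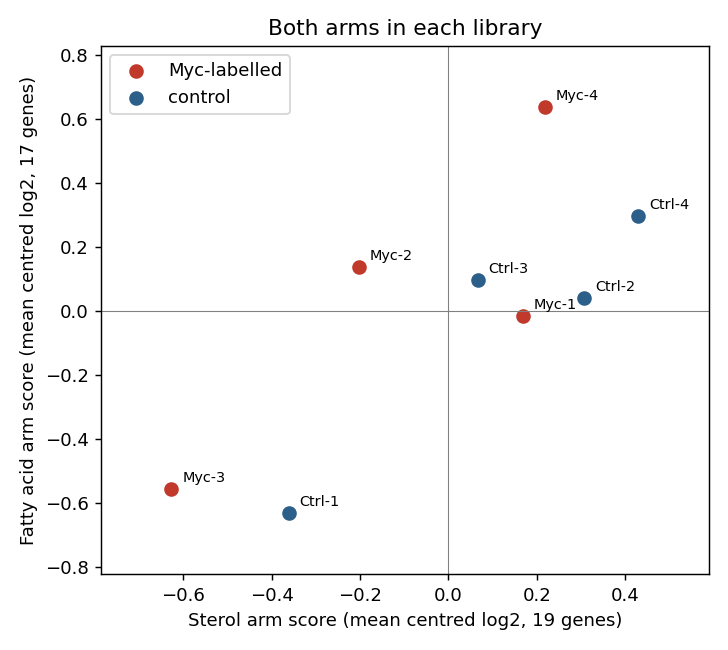
Sterol arm score on the x axis and fatty acid arm score on the y axis, each the mean of centred log2(TPM + 1) values, with 1 point per library. Control replicate 1 and Myc-labelled replicate 3 lie at the lower left, the other 6 libraries have fatty acid scores from -0.016 upward, and Myc-labelled replicate 4 has the highest fatty acid score, 0.64.

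Pairs of members showed the same grouping. The median Pearson r over the 8 libraries was 0.71 for the 171 pairs of sterol genes, 0.55 for the 136 pairs of fatty acid genes and 0.47 for the 323 pairs across the arms, against 0.19 for all pairs of tested genes. An r above 0.5 was found in 72.5% of the sterol pairs, 52.9% of the fatty acid pairs and 45.2% of the pairs across the arms, against 22.2% of all pairs. Closest were Stard4 with Srebf2 at 0.98, and Acat2 with Dhcr7, Hmgcs1 with Idi1 and Acat2 with Acss2 at 0.96. With each gene left out of its own score, 15 of the 19 sterol genes were closer to the sterol score than to the fatty acid score, and 12 of the 17 fatty acid genes were closer to the fatty acid score. The exceptions on the sterol side were Tm7sf2, Ebp, Sc5d and Dhcr7. Those on the fatty acid side were Acss2, Fasn, Me1, Thrsp and Dgat2. Some of these placements were near ties over 8 points, such as Acss2 at 0.84 with the sterol score and 0.83 with the fatty acid score. Tested genes that were not members had a median r of 0.29 with the sterol score and 0.22 with the fatty acid score. The share of them closer to each score is not given.

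The regulators were divided between the arms. Srebf2 correlated at 0.82 with the sterol score and 0.51 with the fatty acid score, and Insig1 at 0.91 and 0.78. Srebf1 correlated at 0.44 with the sterol score and 0.63 with the fatty acid score, Mlxipl at 0.29 and 0.56, and Scap at 0.47 and 0.57. Srebf1 and Srebf2 correlated with each other at 0.34. All of these rest on the same 8 libraries, which also share depth and cell composition. Of the 13013 tested genes that were not members, 27.1% correlated above 0.5 with the sterol score. The centred log2 mean of 8 Kupffer cell markers correlated at 0.71 with the sterol score and 0.25 with the fatty acid score. Their sum was 636 to 1175 TPM in the Myc-labelled libraries and 806 to 1690 TPM in the controls, with 0 of 8 higher in the Myc-labelled group and none at 0 in any library. The cholangiocyte markers correlated at 0.38 with the sterol score and 0.66 with the fatty acid score, and the hepatocyte markers at -0.22 and -0.48. Neutrophil markers correlated at 0.39 and 0.56, and endothelial markers at 0.30 and -0.28. Stellate cell markers, 8 of 9 with the higher mean in the Myc-labelled group, correlated at 0.36 and 0.44, and erythroid markers, 6 of 6 higher, at -0.52 and -0.17. The part of these cells in the scores was not tested.

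**Figure D5:**
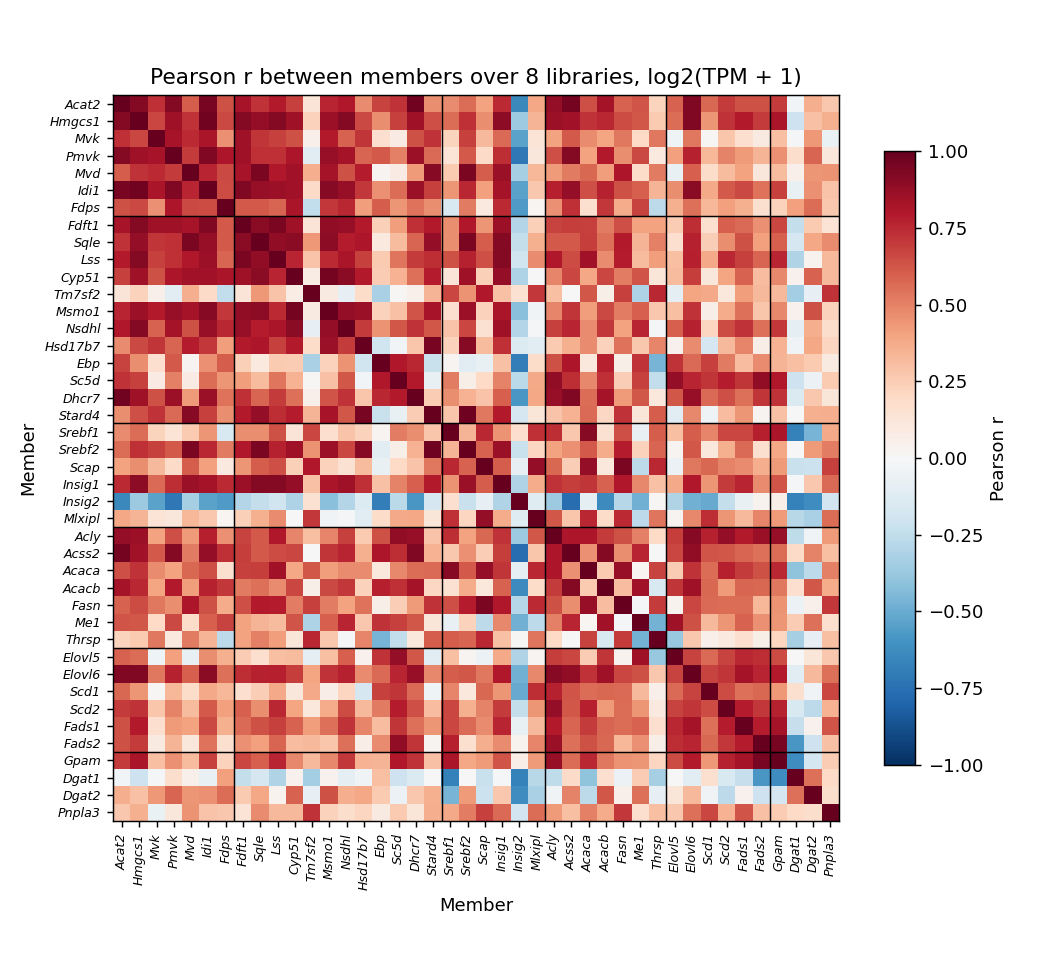
Pearson r between each pair of the 42 members over the 8 libraries on log2(TPM + 1), with genes in the order of the roles and lines between roles. The blocks of the mevalonate arm and the squalene steps are mostly red, with a median r of 0.71 over all sterol pairs, while the rows of Insig2 and Dgat1 hold most of the blue.

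Beyond the members, 60 further genes of the pathway were read from lists of SREBP processing, isoprenoid, sterol handling, acyl chain and glycerolipid genes, of which 58 passed the filter. None passed an adjusted p of 0.05 in either direction (limma), 1 was higher at an unadjusted p under 0.05 and 0 were lower, and the median log2 difference was 0.04. That gene was Mbtps2, the site-2 protease that cuts SREBP inside the membrane (chromosome X, 157535371 to 157598715). It stood at 7.65, 5.24, 5.20 and 5.86 TPM in the Myc-labelled libraries, against 3.90, 3.97, 4.16 and 3.65 TPM in the controls. All 4 Myc-labelled values lay above all 4 controls, as they did in 0.935% of all tested genes (log2 difference 0.49 ± 0.17 SE, limma unadjusted p = 0.0153, adjusted p = 0.9998). That difference was 0.39 to 0.55 when 1 library was left out, and 0.30 with a pseudocount of 5. Of the 58 genes 27 correlated above 0.5 with the sterol score and 29 with the fatty acid score, against 27.1% and 24.3% of the 13013 tested genes that were not members.

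Among 8315 protein-coding genes outside the members with a mean of at least 5 TPM, those closest to the sterol score over the 8 libraries were Tmem94 (r = 0.98), Bin2 (r = 0.97), Rap1gds1 (r = 0.96), Fyb, Hcls1 and Snapc2 (each r = 0.95). Closest to the fatty acid score were Sema4a (r = 0.97), Rusc1 and Rhou (each r = 0.95), and Relb, Slc11a2 and Scamp2 (each r = 0.94). None of these 12 is in the lists of further pathway genes. With 8 libraries and this many candidates, correlations of such size are read as an order of likeness only.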

How the data were processed

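Whole-liver RNA was sequenced from 4 Myc-labelled and 4 control mice after bile duct ligation. HISAT2, StringTie and mm10 are named in the submitters' processing notes, with no versions. The authors deposited 1 gene table per library with TPM, FPKM and coverage (a signal per base) for each gene, per the file headers. Read counts were not used here, and read strand and batches were not stated in the labels. Repeated rows of a gene ID (10 to 15 per library) were summed. Aligned bases were derived from coverage over FPKM, and these totals limit the precision of low genes.

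TPM was transformed to log2(TPM + 1), so fold changes of low genes are understated. Genes averaging 1 TPM or more were tested with limma 3.58.1 in R 4.3.3 (trended, robust, two-sided), with Benjamini-Hochberg adjustment over 13055 genes. The step was tested on simulated data drawn independently for each gene and library, which did not carry shifts shared by many genes of a library. Single values were compared with an exact permutation test (70 assignments, two-sided), which can give no p below 0.0286. The replicates are separate samples by their labels. Whether they came from separate litters or batches was not stated. Membership rests on gene symbols and uses no value, but the set and the other lists were proposed with earlier results of these data known.

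Genes described by library were, within each role, those with the highest mean, the smallest p and the highest SD, and all regulators; Hmgcs1 was added after its values were seen. Likeness was Pearson r with an arm score. Overlaps came from GENCODE M21, and promoter windows from RefSeq GRCm38.p6. Alternatives were the pseudocount, the filter, scaling, FPKM, the limma settings, a block for replicate number and each library left out in turn.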

Additional observations from a re-analysis of the deposited data

Results flagged for a closer look

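In 7 of 92 groups of 4 libraries, the highest or lowest value lay farther from the other 3 than Dixon's 95% critical value for 4 samples (the gap to the nearest value over the whole range). Chance gives about 1 flag in 20 groups, or 4.6 here.

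Control replicate 1 was the far library in 3 of them. Lss stood at 21.1 TPM there, against 54.7 to 65.6 TPM in the other controls (ratio 0.839). Scap stood at 33.4 TPM, against 50.5 to 54.6 TPM (ratio 0.842), and Acaca at 8.44 TPM, against 20.9 to 24 TPM (ratio 0.864). Scap also had a far value among the Myc-labelled libraries, 39.3 TPM in replicate 1 against 47.4 to 48 TPM in the others (ratio 0.938). Acacb stood at 8.15 TPM in control replicate 4, against 3.42 to 3.98 TPM in the other controls (ratio 0.836). Dgat2 stood at 194 TPM in Myc-labelled replicate 3, against 247 to 258 TPM in the other Myc-labelled libraries (ratio 0.849). Myc itself stood at 25.6 TPM in Myc-labelled replicate 3, against 249 to 356 TPM in the others (ratio 0.863).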

How the results depend on the processing

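No member was called in either direction under any setting run. The difference changed sign with a pseudocount of 5 for Acacb (0.017) and Elovl6 (0.0028). It changed sign under median-of-ratios scaling for Acly (-0.027), and under quantile normalization for Ebp (0.019). With FPKM it changed for Ebp (0.019), Acacb (0.012), Elovl6 (0.025) and Dgat1 (0.017). With array weights it changed for Ebp (0.025), Srebf1 (-0.073), Insig2 (-0.047), Acly (-0.14), Acacb (0.011), Fads2 (-0.0042), Gpam (-0.14), Dgat1 (0.17), Dgat2 (0.012) and Myc (0.23). The cause was not tested.

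Leaving out 1 library at a time changed the sign for 20 of the 42 members. The ranges were -0.40 to 0.069 for Acaca, -0.36 to 0.35 for Acacb, -0.43 to 0.021 for Acat2, -0.30 to 0.29 for Acly, -0.60 to 0.16 for Acss2, -0.11 to 0.064 for Dgat1, -0.45 to 0.0065 for Dhcr7, -0.15 to 0.10 for Ebp, -0.27 to 0.30 for Elovl6 and -0.10 to 0.30 for Gpam. They were -0.56 to 0.13 for Hmgcs1, -0.35 to 0.083 for Insig1, -0.25 to 0.070 for Mlxipl, -0.17 to 0.10 for Nsdhl, -0.044 to 0.41 for Sc5d, -0.22 to 0.0092 for Scap, -0.25 to 1.18 for Scd1, -0.090 to 0.35 for Scd2, -0.19 to 0.28 for Srebf1 and -0.085 to 0.22 for Tm7sf2. Myc ranged from -0.91 to 0.43.

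The correlation of the arm scores was 0.72 under median-of-ratios scaling, 0.67 under quantile normalization, 0.85 with the replicate block and 0.84 without Scd1, the last chosen after seeing the data. It ranged from 0.67 without Myc-labelled replicate 3 to 0.84 when 1 library was left out. Members at an unadjusted p under 0.05 (limma) numbered 0 higher and 6 lower without control replicate 1, and 2 higher and 1 lower without Myc-labelled replicate 3. The share of all tested genes under that threshold is not given for these fits, so the counts are not read as a result about the members. The median of all genes was 0.02 without control replicate 1 and 0.12 without Myc-labelled replicate 3. Deviations of same-numbered libraries correlated between -0.06 and 0.13, so the numbers were not taken to pair the samples, and the replicate block called 0 members.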
